A study of Mus musculus with 12 samples.

Results

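The interferon response genes are genes whose transcription rises when a cell is exposed to interferon. The 39 examined here form a list of mouse symbols that leaves out the Ifitm and MHC genes. It was chosen with earlier results of these data known. Each member was found by its Ensembl identifier among the 35275 genes of the expression table. All 39 passed the filter on low values (3 or more libraries at 1 FPKM or above), as did 12823 genes in all. FPKM counts fragments per kilobase of transcript relative to sequencing depth, so levels can be compared between genes.

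The libraries were made from hematopoietic stem cells, the cells that renew all blood lineages, sorted by flow cytometry from mice of the C57BL/6 strain. Wild-type (Thpo+/+) and knockout (Thpo-/-) mice were each studied untreated and after Romiplostim, which makes 4 groups of 3 libraries. Thpo encodes thrombopoietin, the cytokine that drives platelet production and maintains stem cells, and Romiplostim is a drug that activates its receptor, given into a vein at 100 µg/kg per day for 10 days. The treatment protocol names PBS for controls, whereas the group label reads untreated. The age and sex of the mice, the surface markers of the sort and any pooling of animals are not given in the sources used here.

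Interferons bind receptors at the cell surface that signal through Janus kinases, JAK1 with TYK2 for type I interferons and JAK1 with JAK2 for interferon gamma. Type I interferons then act through a complex that holds STAT2 and IRF9 and binds the interferon-stimulated response element (ISRE), whereas interferon gamma acts mainly through the gamma-activated site (GAS). The products of the target genes sense viral nucleic acid, degrade RNA, block translation or hold virus particles at the membrane. Stem cells are known to keep a basal level of such genes, and interferon can push quiescent hematopoietic stem cells into division.

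The depth recovered from the low values was 27.7 to 35.6 M fragments per library. Thpo was listed at 0 in 10 libraries, and its highest value was 0.043 FPKM, too low to check the genotype. All 10 stem cell markers were detected in every library, but 7 of them fell in untreated knockout, and the list's mean log2(FPKM + 1) was 4.31 ± 0.22 there (SD, n = 3), against 5.85 ± 0.17 in untreated wild type. The libraries of a group were sequenced on 1 run, which cannot be told apart from the group. Whether replicates are separate animals is not given in the sources used here, so p-values measure the spread between these samples, part of which may be technical. The summed level of Y-linked genes was 89.96, 0.547 and 92.6 FPKM in untreated wild type and 0.0886, 74.0 and 84.9 in treated wild type, so the replicates of a wild-type group do not all come from 1 animal.

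Promoter stretches are shown here because the members differ in whether they hold the motifs through which interferon acts. RefSeq windows (GRCm38.p6, the mm10 build, from 250 bases before to 50 after a gene's start) were found for 29 of the 39 members. The ISRE core was searched on both strands as GAAA, any 2 bases, GAAA, and 14 of the 29 members (48.3%) held it, against 1079 of 27025 genes (3.99%). The following stretches are written 5′ to 3′ on the gene's strand, with the ISRE core matches in capitals. The first 3 belong to genes that were lower in untreated knockout, and the last 2 to genes that did not pass that test.
Bst2, chr8:71537567-71537622, minus strand: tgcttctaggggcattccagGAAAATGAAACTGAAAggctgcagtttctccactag
Eif2ak2, chr17:78882535-78882564, minus strand: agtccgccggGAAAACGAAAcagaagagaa
Gbp7, chr3:142530263-142530312, plus strand: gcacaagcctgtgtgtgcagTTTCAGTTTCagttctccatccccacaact
Isg15, chr4:156200855-156200916, minus strand: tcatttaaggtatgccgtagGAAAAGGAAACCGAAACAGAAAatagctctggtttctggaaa
Ifit1, chr19:34640765-34640833, plus strand: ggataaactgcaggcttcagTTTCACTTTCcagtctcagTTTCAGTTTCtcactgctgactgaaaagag

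Isg15 held 3 overlapping matches, the first beginning 78 bases before the start. Bst2 held 2 overlapping matches, the first 130 bases before the start, and the single match of Eif2ak2 began 18 bases after it. In Gbp7 and Ifit1 the core lay on the opposite strand and reads as TTTC pairs. The GAS was searched as TTCNNNGAA, and 7 of the 29 members (24.1%) held it, against 9.55% of all genes. Bst2, Eif2ak2, Gbp7 and Oas1a held both motifs, and in Bst2 the matches overlapped. An ISRE core stood in 5 of the 9 windows of members that fell in untreated knockout, and in 9 of the 18 windows of members that did not pass. A GAS match stood in 4 of the 9 and 3 of the 18, a split that was not tested. These matches describe the sequence and were not tested as binding sites.

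In untreated wild-type stem cells the members were well expressed, with a median of 27.6 FPKM against 12.5 for all genes tested, and 28 of the 39 lay above the latter. Group means ran from 1.65 FPKM for Mx1, a gene of the dynamin-like GTPase family, to 496 for Lgals3bp, a secreted glycoprotein. Of the members, 6 were at 100 FPKM or more, 24 between 10 and 100, and 9 under 10. The most abundant included Ifi27, a mitochondrial protein, at 342 ± 40.2 FPKM (SD, n = 3), and Bst2 (tetherin), which holds budding virus at the membrane, at 235 ± 33.4. Irf1, a transcription factor, followed at 133 ± 14.0, and Rtp4, a chaperone of cell surface receptors, at 121 ± 17.7.

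The members varied together among libraries of 1 group. Untreated wild-type replicate 1 was the lowest of its group in 35 of 39 members, against 44.4% of all genes tested. Replicate 2 of that group was the highest in 29 members (32.2% of all genes). In untreated knockout, replicate 3 was highest in 25 members (27.7%), and in treated knockout, replicate 2 was highest in 26 (55.5%) and replicate 3 lowest in 26 (26.9%). The spread in treated wild type was narrow, with a mean log2 level of 4.60 ± 0.01 (SD, n = 3) over the members, against 4.74 ± 0.28 in untreated wild type.

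**Figure D1:**
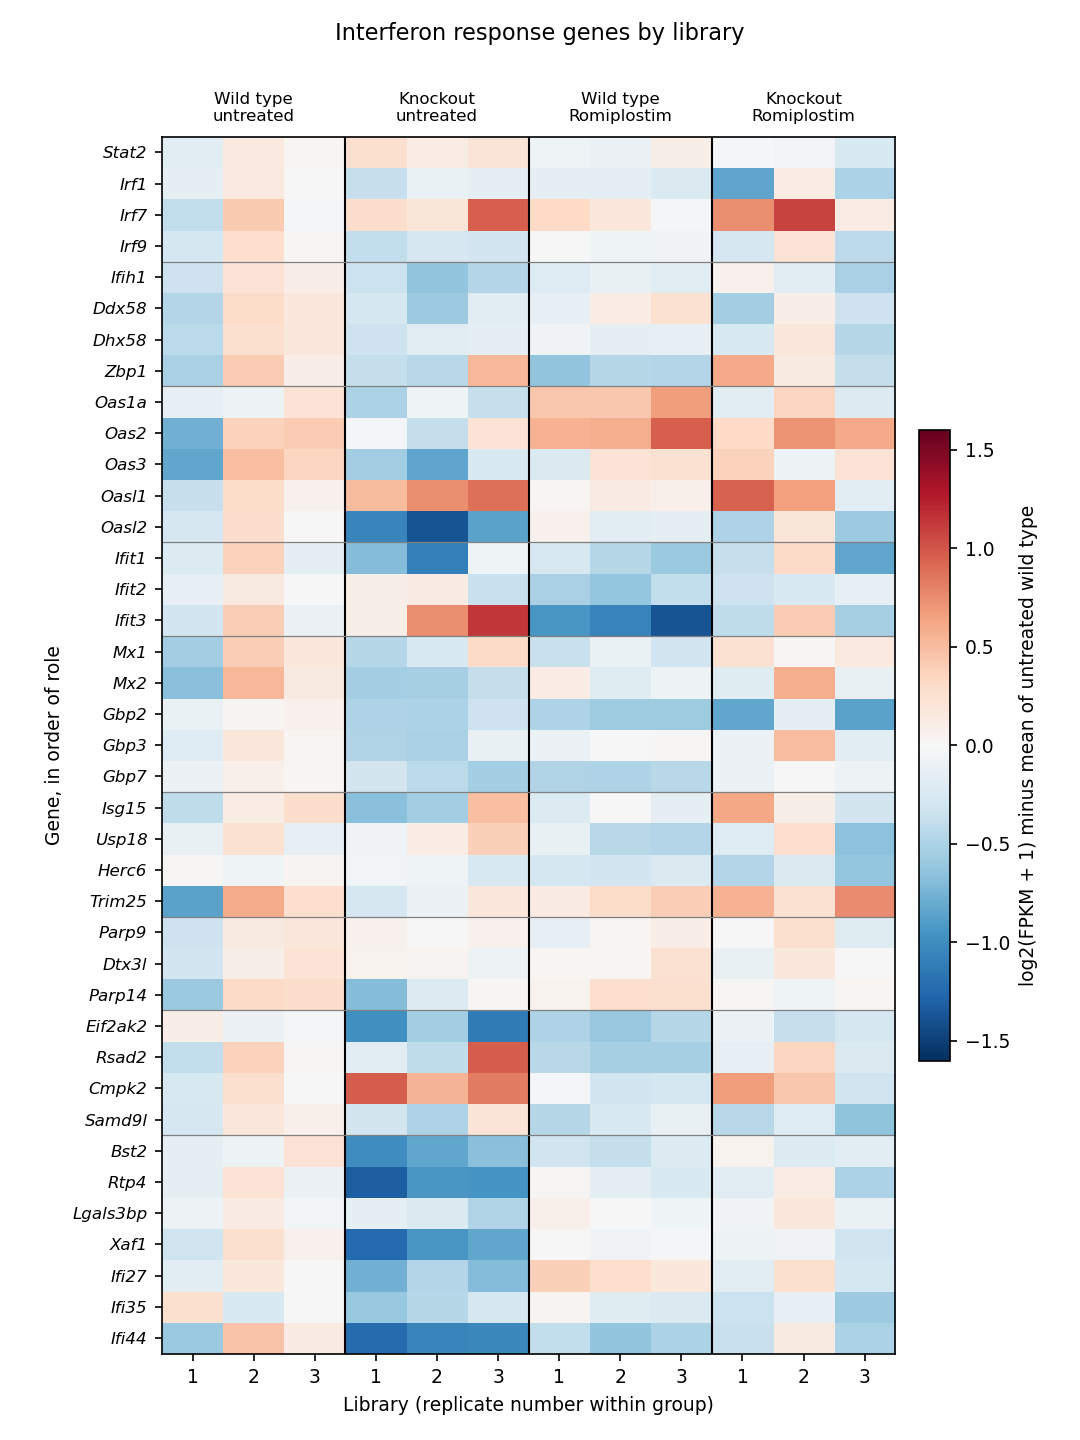
Heat map of the 39 members (rows, grouped by role) in the 12 libraries (columns, grouped by genotype and treatment), coloured by log2(FPKM + 1) minus the gene's mean in untreated wild type (blue lower, red higher). In the mixed block of membrane, secreted and other products, 6 of 7 rows are lower in untreated knockout than in untreated wild type past the criterion. The roles were listed with earlier results of these data known. Untreated wild-type replicate 1 is the lowest of its group in 35 of the 39 rows.

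Untreated knockout was set against untreated wild type to see how the members stand in stem cells from mice without thrombopoietin. In limma's fit, 13 of the 39 members passed an adjusted p under 0.05 (33.3%), against 45.1% of all genes tested. Of these 11 fell (28.2%, against 23% of all genes) and 2 rose (5.13%, against 22.1%). The median member difference was −0.29 in log2(FPKM + 1), against −0.03 for all genes. The groups did not overlap for 14 members (35.9%, against 56.3% of all genes). Among membrane, secreted and other products 6 of 7 members fell, while no transcription factor, IFIT protein, ISG15 system gene or member of the PARP9 group passed. That block gathers products of mixed kinds, mitochondrial and cytoplasmic ones included. The roles were listed with earlier results of these data known, so the split describes the list and was not tested.

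Rtp4 (ENSMUSG00000033355, chromosome 16, 23520291 to 23614222, mm10) stood at 109, 142 and 113 FPKM in wild type and at 47.9, 62.9 and 62.5 in knockout. All knockout libraries lay below all wild-type ones. The gene fell by 1.06 ± 0.17 on the log2(FPKM + 1) scale (SE), or 2.09-fold, with limma's adjusted p = 0.000529.

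Xaf1 (ENSMUSG00000040483, chromosome 11, 72301629 to 72313733), which promotes apoptosis by opposing the inhibitor XIAP, had 58.7, 87.8 and 77.2 FPKM in wild type and 30.6, 38.2 and 40.8 in knockout. The groups did not overlap. It fell by 1.0 ± 0.16 (SE, log2), with limma's adjusted p = 0.000384. Ifi44 (ENSMUSG00000028037, chromosome 3, 151730922 to 151749960), a cytoplasmic protein of the response, had 29.1, 61.0 and 48.7 FPKM in wild type and 18.3, 20.8 and 21.2 in knockout. Its wild-type values were widely spread but stayed above every knockout value. It fell by 1.10 ± 0.24 (limma's adjusted p = 0.00289).

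Bst2 (ENSMUSG00000046718, chromosome 8, 71534255 to 71537456), whose promoter is printed above, stood at 211, 220 and 273 FPKM in wild type and 117, 131 and 147 in knockout. Every knockout library was lower, and the gene fell by 0.83 ± 0.13 (limma's adjusted p = 0.000503). Ifi27 (ENSMUSG00000064215, chromosome 12, 103434211 to 103440239) had 303, 383 and 340 FPKM in wild type and 200, 246 and 211 in knockout. The groups were again apart, with a fall of 0.64 ± 0.16 (limma's adjusted p = 0.00589). Ifi35, an interferon-induced leucine zipper protein, ranged from 51.9 to 73.9 FPKM in wild type and from 40.3 to 51.2 in knockout, and fell by 0.44 ± 0.16 with limma's adjusted p = 0.0417. Its groups nearly touched, and 16.8% of its exon bases lie opposite the antisense gene Gm11626, which an unstranded kit cannot separate. Lgals3bp, at 466 to 542 FPKM in wild type and 354 to 444 in knockout, did not pass (−0.29 ± 0.13, limma's adjusted p = 0.0856).

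In the oligoadenylate synthetase family, whose active enzymes make the messenger that switches on RNase L, the members moved in opposite directions. Oasl2 (ENSMUSG00000029561, chromosome 5, 114896936 to 114912234) had 86.5, 127 and 104 FPKM in wild type and 50.03, 39.7 and 57.2 in knockout. Its groups were well apart, and it fell by 1.10 ± 0.21 (log2, SE), with limma's adjusted p = 0.00162. Its neighbour Oasl1, which represses translation of Irf7 mRNA, had 11.2, 18.2 and 15.4 FPKM in wild type and 21.1, 25.2 and 27.8 in knockout. Here all knockout libraries were higher, and it rose by 0.71 ± 0.25 (limma's adjusted p = 0.0375). Oas1a, Oas2 and Oas3 did not pass, at −0.32 ± 0.17, −0.06 ± 0.29 and −0.55 ± 0.31. Oas1a shares 97.6% identity with Oas1g over 1861 bases, so its values are uncertain.

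Among the effectors that act on translation and nucleotides, Eif2ak2 (ENSMUSG00000024079, chromosome 17, 78852564 to 78882573) encodes PKR, the kinase that halts translation when it binds double-stranded RNA. It had 40.3, 35.0 and 36.9 FPKM in wild type and 18.4, 25.2 and 16.7 in knockout. No knockout value reached a wild-type one, and it fell by 0.88 ± 0.15 (log2, SE), with limma's adjusted p = 0.000624. Cmpk2, a mitochondrial nucleotide kinase, had 9.20, 13.6 and 11.1 FPKM in wild type and 22.7, 16.8 and 20.4 in knockout. All knockout libraries were higher, and it rose by 0.78 ± 0.23 (limma's adjusted p = 0.0178). Rsad2 (viperin), the gene beside Cmpk2 on chromosome 12, had 9.53 to 16.8 FPKM in wild type and 9.37 to 26.1 in knockout. Its difference of 0.12 ± 0.31 did not pass.

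The guanylate-binding proteins are GTPases that attack the compartments of intracellular microbes. Gbp7 (ENSMUSG00000040253, chromosome 3, 142530342 to 142550149) had 22.5, 25.6 and 24.4 FPKM in wild type and 19.6, 17.7 and 16.3 in knockout. The replicates were tight and did not overlap, and the gene fell by 0.42 ± 0.11 (log2, SE), with limma's adjusted p = 0.00748. Gbp7 is 100% identical to Gm43802 over 637 bases, so its values are uncertain, and Gm43802 was not used here. Gbp2 had 42.0 to 47.6 FPKM in wild type and 31.5 to 35.9 in knockout, and fell by 0.44 ± 0.17 with limma's adjusted p = 0.049. Gbp3, Mx1 and Mx2 did not pass (−0.38 ± 0.18, −0.13 ± 0.25 and −0.49 ± 0.28). Mx1 and Mx2 share 95.3% identity over 843 bases, so their values are uncertain, and Mx2 is annotated as a polymorphic pseudogene.

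Among the sensors of viral nucleic acid, Ifih1 (MDA5), which detects long double-stranded RNA, had 6.14 to 9.56 FPKM in wild type and 4.80 to 6.13 in knockout. It fell by 0.48 ± 0.18 with limma's adjusted p = 0.0484, and its lowest wild-type and highest knockout values nearly coincided. Ddx58 (RIG-I), Dhx58 (LGP2) and Zbp1 did not pass, with differences of −0.35 ± 0.22, −0.22 ± 0.19 and −0.09 ± 0.31. The calls of Ifih1, Gbp2, Ifi35 and Oasl1 were lost under 16, 13, 11 and 9 of 24 alternative settings, and that of Cmpk2 under 2.

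The transcription factors that carry the response did not pass either. Irf7, which amplifies type I interferon production, had 43.9, 78.2 and 57.1 FPKM in wild type and 70.6, 66.8 and 114 in knockout, a difference of 0.48 ± 0.28. Its groups overlapped, and knockout replicate 3 was the highest. The differences of Stat2, Irf1 and Irf9 were 0.19 ± 0.13, −0.21 ± 0.20 and −0.32 ± 0.17. Isg15, the ubiquitin-like modifier, showed the same spread, with 24.3, 26.2 and 54.8 FPKM in knockout around a wild-type range of 29.2 to 47.9. Its 95% interval of −0.92 to 0.42 leaves room for a change of either sign. For Parp9 and Dtx3l, partners in the response to DNA damage and virus, the intervals were narrower, −0.29 to 0.39 and −0.31 to 0.33. These genes share 458 exon bases on opposite strands. Ifit3, an RNA-binding antiviral protein, had 6.85 to 11.8 FPKM in wild type and 9.39 to 20.2 in knockout (0.66 ± 0.30, limma's adjusted p = 0.0956), and it shares 97.8% identity with Ifit3b over 1700 bases.

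The other members that did not pass are given by their differences. In the IFIT proteins, which bind foreign RNA, Ifit1 stood at −0.62 ± 0.30 and Ifit2 at −0.05 ± 0.15. In the ISG15 system, the protease Usp18, which removes ISG15, stood at 0.15 ± 0.22, and the ligases Herc6 and Trim25 at −0.12 ± 0.13 and −0.06 ± 0.30. Parp14, an ADP-ribosyltransferase, stood at −0.30 ± 0.24 and Samd9l, which restrains translation and growth, at −0.20 ± 0.20. Trim25 was widely spread in wild type, from 5.79 to 17.5 FPKM, and so spanned the knockout range of 9.19 to 12.9.

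**Figure D2:**
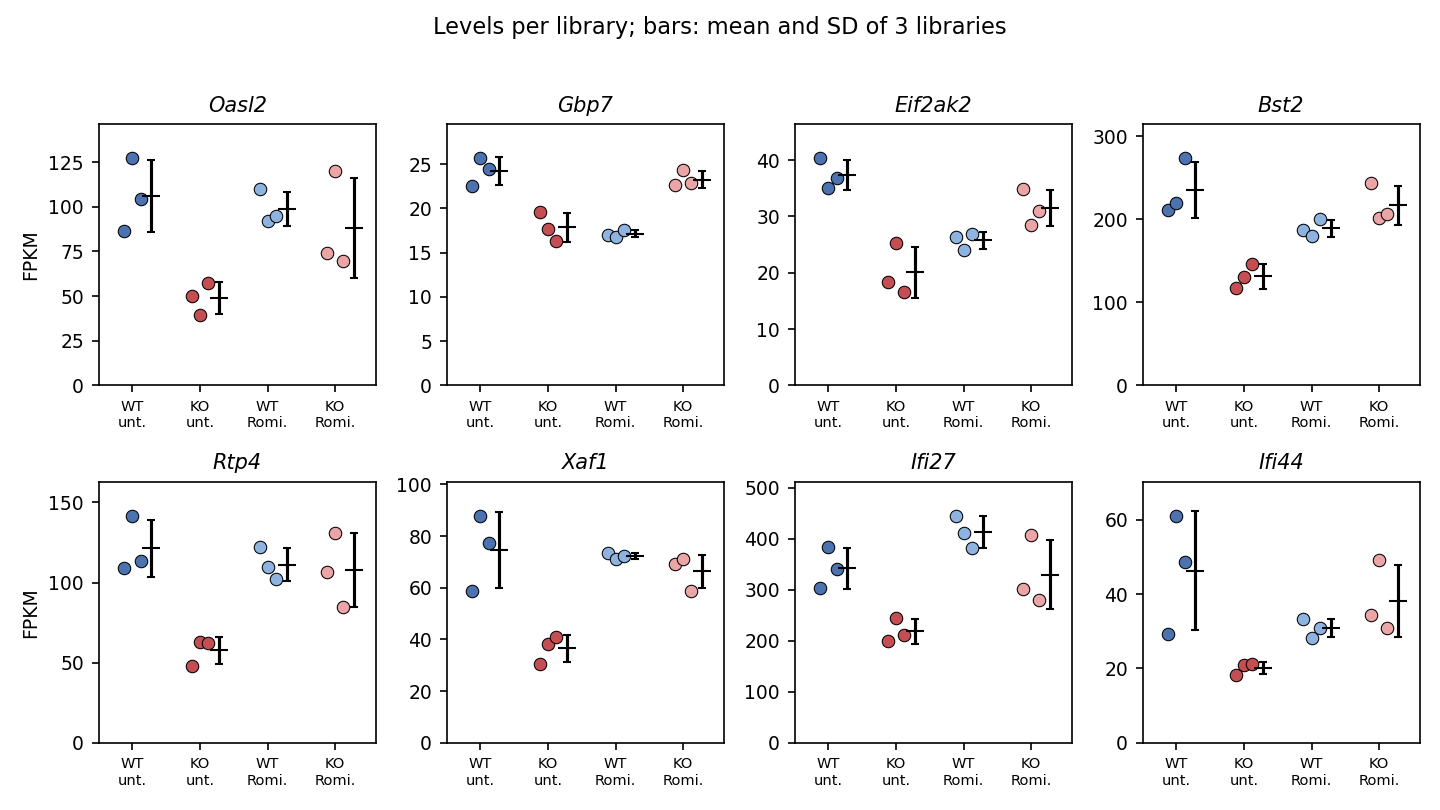
FPKM of 8 members in each library, 1 panel per gene, with points for libraries and bars for the mean and SD of 3. The 8 are those past the criterion both between untreated genotypes and between treated and untreated knockout. In each panel the untreated knockout points lie below the untreated wild-type and treated knockout points, and in Gbp7 and Eif2ak2 treated wild type overlaps them.

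Markers of other cell types moved with this comparison. All 8 B cell markers and all 8 macrophage markers rose in untreated knockout, their summed level going from 85.2 to 96.96 up to 1623 to 4050 FPKM and from 78.0 to 81.3 up to 820 to 2427 FPKM. Of 7 markers of plasmacytoid dendritic cells, the main producers of type I interferon, 5 rose, with sums of 37.2 to 41.8 FPKM in wild type and 182 to 705 in knockout. Most of the knockout sum was Ly6d, which B-lineage cells also express, at 121, 257 and 619 FPKM, and most of the wild-type sum was Tcf4, at 35.1 to 39.01. The defining marker Siglech was at 0 to 0.042 FPKM in wild type and 0.822 to 2.21 in knockout. All 8 neutrophil markers, 6 of 8 erythroid, 6 of 8 T and NK cell and 6 of 8 stromal markers rose as well. The part of these cells in the differences was not tested, and in bulk samples fewer cells of a type and less RNA per cell cannot be told apart. Without untreated knockout replicate 2, the highest in both the B cell and the macrophage sum, 9 members passed, of which 1 rose and 8 fell. With replicate 3 of untreated knockout and replicate 2 of treated knockout both left out, 13 passed, of which 1 rose and 12 fell. For fits with libraries left out, the share of all genes called is not given here.

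**Figure D3:**
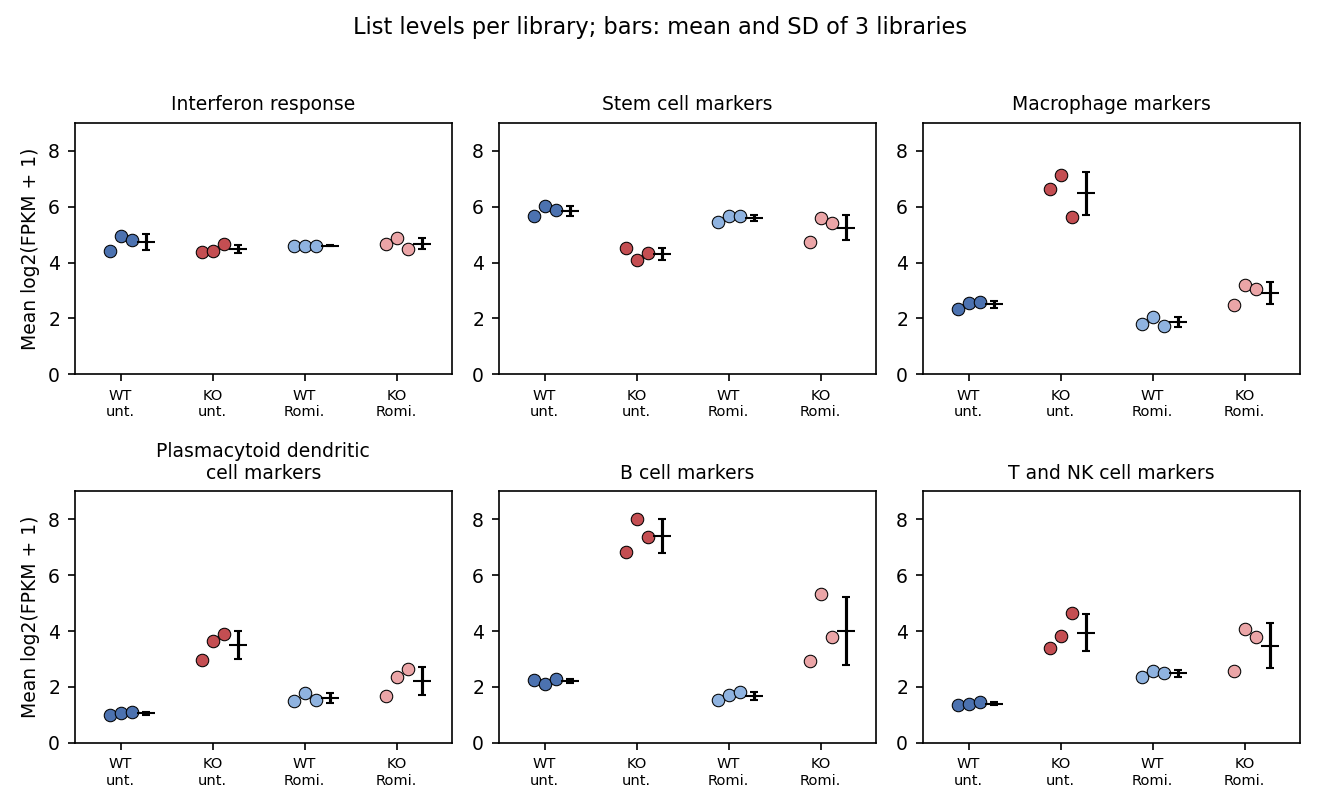
Mean log2(FPKM + 1) of the interferon response genes and 5 marker lists in each library, with points for libraries and bars for the mean and SD of 3. The interferon list spans 4.47 to 4.74 in group means, while the B cell and macrophage lists are highest in untreated knockout and the stem cell list lowest there.

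Romiplostim was next compared with no treatment in knockout, where its natural counterpart is missing. This comparison uses the same untreated knockout libraries as the comparison above, so the results are not independent. Of the 39 members, 8 rose and 0 fell (20.5% passed, against 29.6% of all genes tested, and 10.7% of all genes upward and 18.9% downward). The groups did not overlap for 14 members (35.9%, against 40.3% of all genes). At an unadjusted p under 0.05 there were 15 (38.5%, against 42.1% of all genes). The median member difference was 0.27 in log2(FPKM + 1), against −0.09 for all genes. The 8 were Rtp4, Ifi44, Xaf1, Oasl2, Bst2, Eif2ak2, Ifi27 and Gbp7, each also among those lower in untreated knockout.

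In treated knockout Rtp4 reached 107, 131 and 84.9 FPKM, above every untreated knockout value. It rose by 0.88 ± 0.17 (log2, SE), with limma's adjusted p = 0.00366. Xaf1 reached 69.2, 70.9 and 58.9 FPKM and rose by 0.85 ± 0.16 (limma's adjusted p = 0.00242). The values of both genes overlapped those of untreated wild type. Bst2 reached 243, 201 and 206 FPKM, and Oasl2 74.2, 120 and 69.6 FPKM. Bst2 rose by 0.72 ± 0.13 (limma's adjusted p = 0.00269) and Oasl2 by 0.80 ± 0.21 (limma's adjusted p = 0.016). Oasl2 was spread widely, with replicate 2 far above the others.

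Ifi44 reached 34.4, 49.1 and 30.8 FPKM and rose by 0.86 ± 0.24 (limma's adjusted p = 0.0184). Eif2ak2 reached 34.9, 28.6 and 30.9 FPKM and rose by 0.64 ± 0.15 (limma's adjusted p = 0.00825). Each stood above all untreated knockout libraries. Ifi27 reached 302, 407 and 281 FPKM and rose by 0.58 ± 0.16 (limma's adjusted p = 0.0171). Gbp7 reached 22.6, 24.3 and 22.8 FPKM and rose by 0.37 ± 0.11 (limma's adjusted p = 0.0234). Gbp7 had the smallest of the 8 differences and the tightest replicates.

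Oasl1 and Cmpk2, the members that were higher in untreated knockout, did not pass here. Oasl1 had 29.1, 23.5 and 12.9 FPKM in treated knockout (−0.23 ± 0.25), and Cmpk2 had 18.3, 15.4 and 8.796 (−0.52 ± 0.23, limma's adjusted p = 0.113). In both genes replicate 3 was the lowest, and the groups overlapped. Ifit3 had 6.34, 11.9 and 5.73 FPKM (−0.83 ± 0.30, limma's adjusted p = 0.0565). Without treated knockout replicate 2 the count was 12, of which 7 rose and 5 fell. With replicate 3 of untreated knockout left out as well it was 8, of which 5 rose and 3 fell (Ifit3, Gbp2 and Herc6). The share of all genes called in these fits is not given here, so the counts do not show a change particular to the members.

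The Y-linked genes also differed between these groups, although the labels give no sex, and wild type was mixed, as given above. Their summed level was 45.2 to 99.6 FPKM in the 3 untreated knockout libraries and 0.0215 to 0.156 in the 3 treated ones. With the Y-linked level as a term in limma's fit, 1 of the 39 members passed, Bst2, with an adjusted p of 0.0363. In knockout that level changed together with treatment, so this fit cannot tell Romiplostim and the Y-linked level apart. The loss of calls is therefore not read as a result, and the share of all genes called in that fit is not given here. All 8 macrophage and all 8 B cell markers fell, the B cell sum to 93.2 to 634 FPKM, while 7 of 10 stem cell markers rose. Of the markers tested, 5 of 6 stromal, 3 of 6 plasmacytoid dendritic cell, 4 of 8 neutrophil and 3 of 8 erythroid markers fell. None of the 7 T and NK cell markers passed. Siglech stood at 0.65 to 3.21 FPKM in treated knockout. With quantile scaling the median over all genes was 0.07 instead of −0.09, and all 8 members kept a positive difference under it.

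In wild type, Romiplostim was compared with no treatment. Of the 39 members 1 passed, a fall (2.56%, against 1.84% of all genes tested, 0.866% upward and 0.975% downward), and 8 had an unadjusted p under 0.05 (20.5%, against 13.3% of all genes). Gbp7 went from 22.5, 25.6 and 24.4 FPKM to 17.0, 16.8 and 17.6, and fell by 0.47 ± 0.11 (limma's adjusted p = 0.0468). The treated values lay together below all untreated ones. This call was lost under 13 of 25 alternative settings. With the replicate block over all 12 libraries 0 members passed (Gbp7 at an adjusted p of 0.0776). The block was also fitted in the wild-type groups alone, a choice made after seeing the data, although the labels do not pair the samples. In that fit 6 members passed (11.7% of all genes did), of which Oas1a rose and Ifit2, Ifit3, Gbp2, Gbp7 and Eif2ak2 fell. The groups did not overlap for 12 members (30.8%, against 26.8% of all genes). Ifit3 had 4.10, 3.63 and 2.73 FPKM in treated wild type against 6.85 to 11.8 untreated (−1.13 ± 0.30, limma's adjusted p = 0.0947). Eif2ak2, at 24.1 to 26.9 FPKM treated, had a difference of −0.52 ± 0.15 (limma's adjusted p = 0.118), and Oas1a, at 54.2 to 64.5 FPKM treated, of 0.51 ± 0.17 (limma's adjusted p = 0.206). Rtp4, Xaf1 and Oasl2 had differences of −0.12, −0.03 and −0.09, with 95% intervals of −0.50 to 0.26, −0.37 to 0.31 and −0.55 to 0.38. Among the markers, 3 of 8 erythroid, 1 of 8 macrophage and 1 of 10 stem cell markers fell and 0 of these rose, and their part was not tested.

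**Figure D4:**
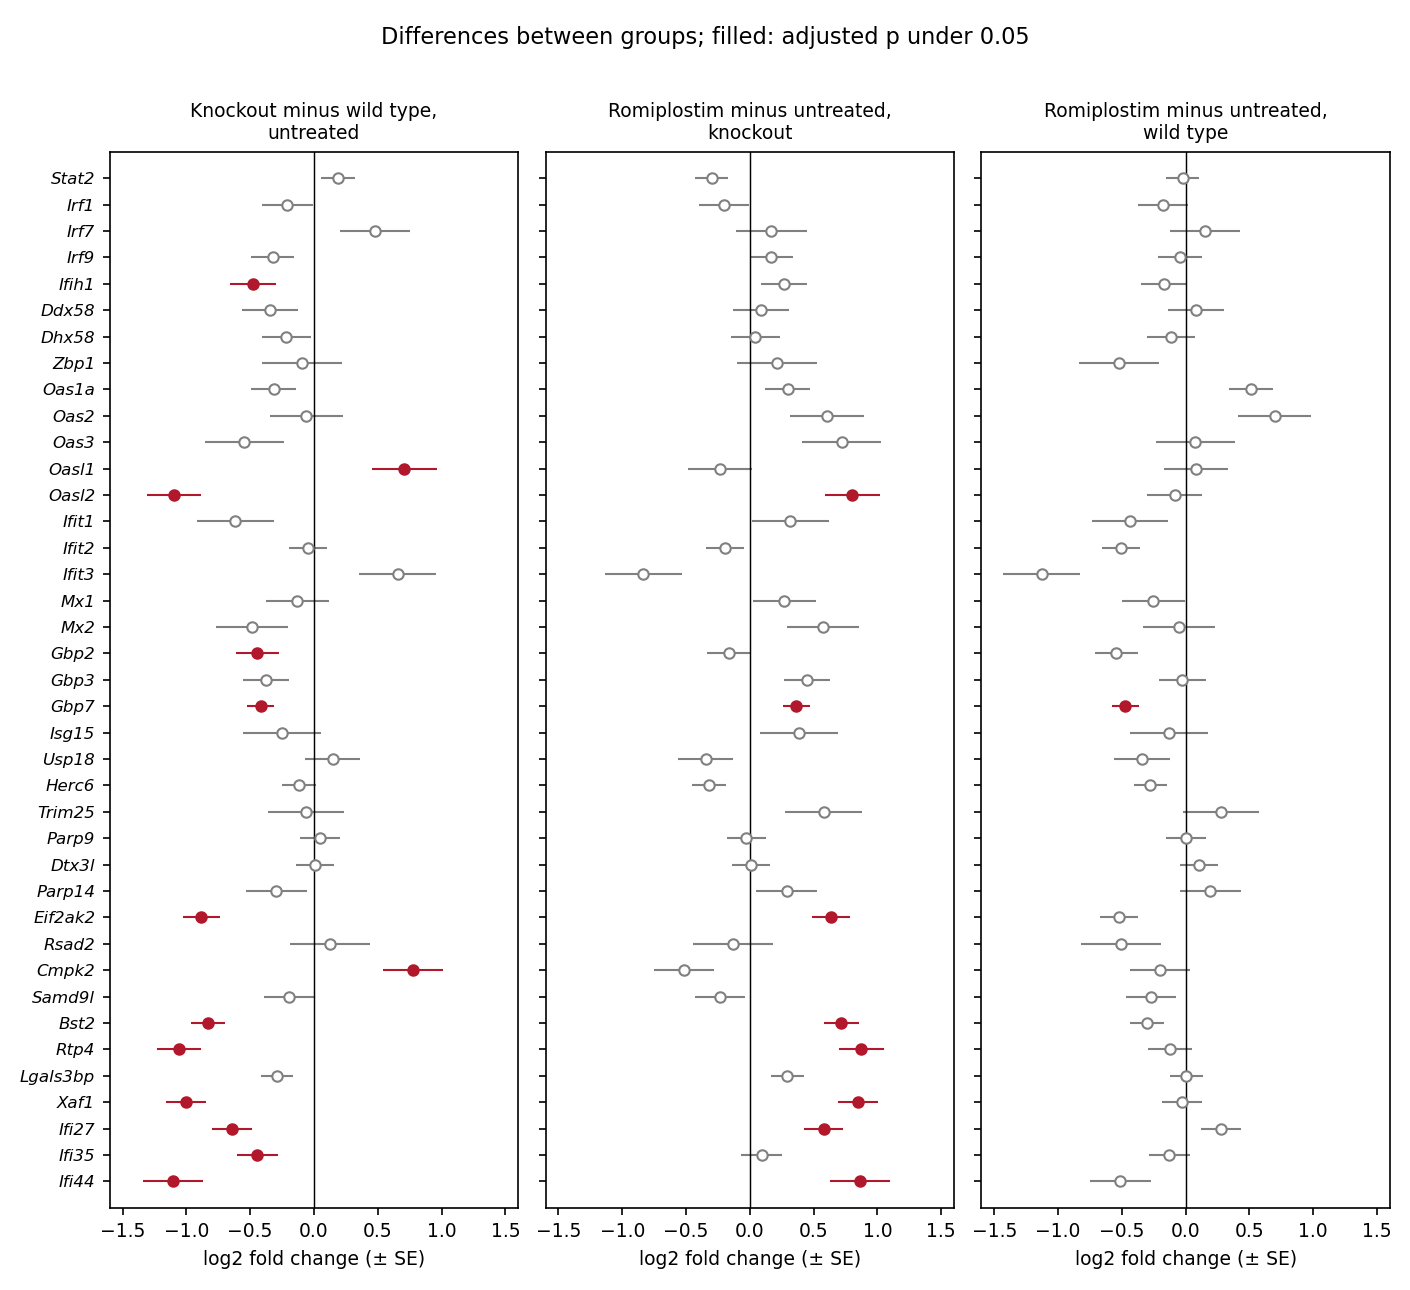
Differences in log2(FPKM + 1) of the 39 members, with bars of 1 SE and filled points past the criterion, for knockout against wild type untreated and for Romiplostim against no treatment in either genotype. Rtp4, Xaf1, Oasl2 and Ifi44 lie left of 0 between untreated genotypes and right of 0 for Romiplostim in knockout, comparisons that share the untreated knockout libraries.

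Under Romiplostim, knockout was compared with wild type. In limma's fit 0 of the 39 members passed (1.37% of all genes did, 0.632% upward and 0.741% downward), and 3 had an unadjusted p under 0.05 (7.69%, against 19.8% of all genes). These were Gbp7 (0.42 ± 0.11, adjusted p = 0.0734), Ifit3 (0.95 ± 0.30, adjusted p = 0.13) and Oas1a (−0.53 ± 0.17, adjusted p = 0.138). The groups did not overlap for 11 members (28.2%, against 25.1% of all genes), and the median member difference was 0.02. Rtp4 had a 95% interval of −0.44 to 0.31 and Xaf1 of −0.46 to 0.22, so a fall of the size seen between untreated genotypes lay outside both. The Y-linked sum differed here too, at 0.0215 to 0.156 FPKM in treated knockout and 0.0886, 74.0 and 84.9 in treated wild type. It was high in all untreated knockout libraries, so the 2 genotype comparisons differ in Y-linked level as well as in Romiplostim. Without treated knockout replicate 2, 4 members passed, of which Gbp7 rose and Irf1, Oas1a and Ifi27 fell. The share of all genes called in that fit is not given here.

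The interaction tests whether the Romiplostim difference in knockout departs from that in wild type. Of the 39 members 6 passed, all upward (15.4%, against 15.6% of all genes tested and 5.53% upward and 10% downward). Ifi44 had the largest interaction at 1.37 ± 0.34 (log2, SE; limma's adjusted p = 0.0198), followed by Eif2ak2 at 1.16 ± 0.21 (limma's adjusted p = 0.00585). Bst2 stood at 1.02 ± 0.19 (limma's adjusted p = 0.00641) and Rtp4 at 0.996 ± 0.24 (limma's adjusted p = 0.0203). Xaf1 was at 0.88 ± 0.22 (limma's adjusted p = 0.0222) and Gbp7 at 0.84 ± 0.15 (limma's adjusted p = 0.00553). The wild-type difference was below 0 in all 6, at −0.51 for Ifi44, −0.52 for Eif2ak2, −0.31 for Bst2, −0.12 for Rtp4, −0.03 for Xaf1 and −0.47 for Gbp7, and passed for Gbp7. Oasl2 and Ifi27 did not pass (0.89 ± 0.30, adjusted p = 0.0679, and 0.30 ± 0.22, adjusted p = 0.374). With the Y-linked term 3 members passed, Gbp7, Eif2ak2 and Bst2, and the share of all genes called in that fit is not given here. The interaction includes the knockout difference, in which Romiplostim and the Y-linked level cannot be told apart.

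The other genes of the pathway were counted by list, and most of those tested did not pass. None of the 10 interferon ligands reached the filter, and their summed level was at most 1.09 FPKM in any library. Ifng, the gene of interferon gamma, was listed at 0 in the 3 untreated wild-type libraries and at 0.0822, 0.309 and 0.752 FPKM in untreated knockout. It had 0.0299, 0.582 and 0.924 FPKM in treated knockout and 0.0266 to 0.0874 in treated wild type. These values are low, as 3 fragments on 2 kb correspond to 0.0422 to 0.0541 FPKM. Of 10 receptor and signalling genes, 9 were tested and 3 rose in untreated knockout (33.3%, against 22.1% of all genes tested). Il10rb, which is shared by the receptors of interleukin 10 and interferon lambda, had 19.0 to 21.5 FPKM in wild type and 34.8 to 39.4 in knockout, and rose by 0.84 ± 0.13 (limma's adjusted p = 0.000454). Ifngr1 and Ifngr2, the chains of the interferon gamma receptor, rose by 0.86 ± 0.22 and 0.67 ± 0.18. In knockout given Romiplostim, Il10rb fell by 1.02 ± 0.13 (limma's adjusted p = 0.00034).

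Of 14 other sensors and adaptors, 12 were tested and 4 rose in untreated knockout (33.3%, against 22.1% of all genes tested). With Romiplostim in knockout 4 fell (33.3%, against 18.9% of all genes). Irf8, a factor of myeloid, B and dendritic cells, had 3.80 to 5.50 FPKM in wild type and 48.0 to 74.4 in knockout (a rise of 3.51 ± 0.29, limma's adjusted p = 9.22e-06). Tlr7, an endosomal receptor for single-stranded RNA, had 0.0561 to 0.101 FPKM in wild type and 3.51 to 4.49 in knockout. Irf5 rose by 1.70 ± 0.33 and Mavs by 0.45 ± 0.12. These genes moved in the direction of the B cell and macrophage markers given above. Of 10 feedback genes, 9 were tested and 2 fell in untreated knockout (22.2%, against 23% of all genes, so near that share). Socs1, an inhibitor of JAK kinases, had 17.7 to 26.9 FPKM in wild type and 5.50 to 11.7 in knockout, and fell by 1.40 ± 0.30 (limma's adjusted p = 0.00314). In wild type given Romiplostim and between treated genotypes, 0 genes of these 4 lists passed limma's criterion (1.84% and 1.37% of all genes did).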

How the data were processed

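The authors deposited 1 table of FPKM values for 12 libraries. The submitters' processing notes name TopHat2, Cufflinks 2.2.1 and mm10, without their roles. Per the labels' protocols, cDNA came from the SMARTer Ultra Low kit, which keeps no strand information. Depth was recovered from low values, of which 46.1% to 51.9% were whole within 0.05 fragments, so it is an estimate. Symbols came from GENCODE M21 (34490 of 35275 identifiers). No 2 libraries were identical.

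Values were converted to log2(FPKM + 1), and the 12823 genes at 1 FPKM or above in 3 or more libraries were tested. The 4 group means were estimated together from the 12 libraries in limma 3.58.1 under R 4.3.3, its empirical Bayes step following an intensity trend. Tests were two-sided with Benjamini-Hochberg adjustment over all genes tested per comparison, and the criterion was an adjusted p under 0.05. An exact test of 3 against 3 libraries cannot go below 0.1. Fold changes on this scale understate low genes. The script was tested on simulated data.

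The members and lists were chosen with earlier results of these data known. Members past the criterion are given by library or range, the others by ranges and counts, and at most 4 genes per pathway list are named, those with the smallest p. A gene of these lists is not reported here. Alternatives changed the pseudocount, filter, scaling, trend, weights, libraries and fold criterion, or added a block or a Y-linked term. Same-numbered libraries of the wild-type groups had correlations of 0.123 to 0.403 in 3 of 3 pairs, against −0.36 to 0.123 for other pairs. The labels do not say that the numbers pair samples. The Y-linked sum was 89.96 FPKM in untreated and 0.0886 in treated replicate 1, and 0.547 and 74.0 in replicate 2. A blocked fit of these groups was added after seeing the data, and whether the numbers pair them was not tested.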

Additional observations from a re-analysis of the deposited data

Results flagged for a closer look

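The Romiplostim difference departed between genotypes, by limma's interaction term, in 6 interferon response genes and 5 other genes of the pathway. The 6 were 15.4% of the members, against 15.6% of all genes tested (5.53% upward and 10% downward). The 5 were 22.2% of the 9 receptor and signalling genes tested and 25% of the 12 sensors and adaptors tested. Of the 9 feedback genes tested, 0 passed. The values are the log2(FPKM + 1) difference in knockout minus that in wild type. Among the members they were 1.37 for Ifi44, 1.16 for Eif2ak2, 1.02 for Bst2, 0.996 for Rtp4, 0.88 for Xaf1 and 0.84 for Gbp7. Among the other genes they were −3.11 for Irf8, −2.04 for Irf5, −1.87 for Tlr7, −0.94 for Il10rb and −0.87 for Ifngr2. Groups of 3 libraries were too small for a test of single outlying samples.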

How the results depend on the processing

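Counts are of the 39 members past limma's criterion. For most settings, here and in the Results, the share of all genes called is not given. Such counts do not show whether the members gained or lost calls beyond all genes. Between untreated genotypes (13) there were 23 with library weights, 4 at 2-fold or more, and 9 to 14 with 1 library left out. For Romiplostim in wild type (1) there were 0 with a filter of 5 FPKM, without the trend, with the replicate block, with the Y-linked term or at 2-fold, 9 with weights, 4 with only the compared libraries, 3 with replicate 3 of untreated knockout and replicate 2 of treated knockout both left out, 6 with the replicate block in the wild-type groups alone, and 0 to 2 with 1 left out. For Romiplostim in knockout (8) there were 13 with quantile scaling, 17 with weights, 1 with the Y-linked term, 4 with only the compared libraries, 0 at 2-fold, and 6 to 12 with 1 left out. Between treated genotypes (0) there was 1 with median-of-ratios and 1 with quantile scaling, 4 with weights, 4 without the same 2 libraries, and 0 to 4 with 1 left out. For the interaction (6) there were 10 with weights, 3 with the Y-linked term, 3 at 2-fold, and 3 to 7 with 1 left out. The cause was not tested. Of 28 calls of single members, 12 held under all alternatives other than the 2-fold criterion, and none reversed. Between untreated genotypes Oasl2, Gbp7, Eif2ak2, Bst2, Rtp4, Xaf1, Ifi27 and Ifi44 held, whereas Ifih1 was lost under 16 of 24, Gbp2 13, Ifi35 11, Oasl1 9 and Cmpk2 2. In treated knockout only Bst2 held. Same-numbered libraries deviated together in every pair between the wild-type groups only (over all groups, 6 of 18 pairs had a correlation over 0.1), and the replicate block over all libraries gave 10, 0, 9, 0 and 6 members in the order above. The share of upward calls over all genes in treated knockout was 36.3%, 47.5% with median-of-ratios and 58.2% with quantile scaling, and in the interaction 35.5% and 55.5% with quantile scaling. For Romiplostim in wild type it was 47% and 57% with median-of-ratios. Depth limits Mx1, Mx2, Oas2 and Oas3 most, the members at the lowest FPKM.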
